A study of Mus musculus with 8 samples.

Results

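Lineage-negative bone marrow cells carrying the leukaemia fusion gene PML-RARa were set against the same preparation carrying the homeobox gene HOXA9, in both cases with Ring1b present. These are 2 of the 8 mRNA libraries of the series, 1 library for each side, so every difference below is between these 2 libraries and carries no test. The members are all transcripts of the deposited tables: of 19353 RefSeq transcripts, 10886 reached a normalised read count of 20 in the higher of the 2 libraries and 8467 did not. Just inside that limit stood Rhox8 with 20.1 in PML-RARa cells and 9.13 in HOXA9 cells, and Pak6 with 20.1 in PML-RARa cells and 4.98 in HOXA9 cells. Just outside it stood Gm19710 with 13.4 in PML-RARa cells and 19.9 in HOXA9 cells, and Gm16675 with 10.5 in PML-RARa cells and 19.9 in HOXA9 cells.

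The PML-RARa and HOXA9 cells came from C57BL/6 mice, were transduced in culture and had been kept for 72 h with ethanol, the solvent. The labels give both as Ring1b WT, Ring1a-/- and Cdkn2a-/-, so both lack Ring1a and the INK4A/ARF tumour suppressor locus by label, and Ring1b is the PRC1 ubiquitin ligase that remains. Transduced cells treated for 72 h with OHT (4-hydroxytamoxifen) carry the label Ring1b KO, and their PML-RARa and HOXA9 libraries form a second pair that shares no library with the first. It differs in genotype and treatment and is a second measurement of the contrast, not a replicate. Libraries of cells labelled NT (not transduced) and of MLL-AF9 cells with Ring1b present are used for levels alone. The deposited columns of the NT cells are headed Empty, and whether that means an empty vector is not stated. How many mice gave cells, which vectors were used and how long the cells were cultured after transduction are not stated in the labels.

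HOXA9 is a homeobox transcription factor of haematopoietic stem and progenitor cells, whose forced expression lets myeloid progenitors go on dividing in culture and which cooperates with the cofactor MEIS1 in leukaemia. PML-RARa is the fusion protein of acute promyelocytic leukaemia: it joins the PML protein to the retinoic acid receptor RARa, and without added retinoic acid it holds retinoic acid target genes repressed and blocks granulocyte maturation. PRC1 ubiquitinates histone H2A and keeps developmental genes silent, and its loss is studied in leukaemia models because such cells depend on it to varying degrees.

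Read totals were 5992257 in the PML-RARa library and 6657911 in the HOXA9 library, and between 4226751 and 6998223 over all 8. Values are the authors' normalised read counts (base mean), and a difference is log2(value + 1) in PML-RARa cells minus the same in HOXA9 cells. That scale understates differences of transcripts with low values. Hoxa9 (NM_010456) stood at 23.9 in PML-RARa cells, against 249.9 in HOXA9 cells, with 20.7 in NT and 122 in MLL-AF9 cells. It was thus higher in cells labelled HOXA9, as the label reads. Pml had 46.9 in PML-RARa cells, against 53.1 in HOXA9 cells, and the most read Rara transcript had 44.0 in PML-RARa cells, against 54.0 in HOXA9 cells. Neither gene shows the fusion, and the labels do not say whether the introduced sequences are mouse or human, so the PML-RARa label is not checked by them.

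Rnf2, which encodes Ring1b, had 990.4 in PML-RARa cells, against 896 in HOXA9 cells. In the OHT libraries, labelled Ring1b KO, Rnf2 still had 771 in PML-RARa OHT cells, against 856 in HOXA9 OHT cells. With Ring1b present, reads were found at both genes that the labels give as deleted there. Ring1 had 179.9 in PML-RARa cells, against 191 in HOXA9 cells, and the Cdkn2a transcript NM_009877 had 66.0 in PML-RARa cells, against 67.2 in HOXA9 cells. A count over a whole transcript can keep reads from parts outside a deletion, so these values check none of the Ring1b, Ring1a and Cdkn2a labels. Markers of haematopoietic progenitors were present on both sides: Cd34 had 83.2 in PML-RARa cells, against 59.8 in HOXA9 cells, Cebpa had 1872 in PML-RARa cells, against 2133 in HOXA9 cells, and Mpo, the myeloperoxidase of early granulocytes, had 3410.3 in PML-RARa cells, against 3511 in HOXA9 cells. Kit stood below the filter with 9.57 in PML-RARa cells, against 2.49 in HOXA9 cells. Dnmt1, Ezh2, Stat3 and Trp53 were below the filter as well, so such a value is not read here as absence of a gene's RNA. Why these counts were low was not tested. The 2 libraries also differed in sex-linked transcripts, which were looked up after other values had been seen: Xist had 683 in PML-RARa cells, against 3081 in HOXA9 cells, and the Y-linked Ddx3y had 1275 in PML-RARa cells, against 709.8 in HOXA9 cells. The labels do not give the sex of the donors, and its part in the differences below was not tested.

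The 2 libraries were close for most transcripts. Of the 10886 that passed the filter, 9478 (87.1%) lay within 2-fold, and the median difference was 0.03. At least 2-fold higher in PML-RARa cells were 771 transcripts (7.08%), and 637 (5.85%) were at least 2-fold lower. These are called higher and lower below. Of them, 140 were at least 8-fold higher and 95 at least 8-fold lower. The 95% exact interval of the read ratio lay off equality for all 771 and all 637, an interval that covers counting error alone and not the spread between cultures. The limit of 20 and the 2-fold rule largely fix this outcome in advance, so it adds no support to the calls. In the library with fewer reads, 23 of the higher and 18 of the lower transcripts stood at the lowest entry, 1 read, which may stand for 0 or 1 read. Lists of genes are counted with 1 transcript per symbol, for which the shares were 7.10% higher and 5.84% lower among 10646 symbols. A member that reached 20 in 1 library alone had to have the larger value there, so where such members hold part of a list's calls, the calls among members that reached 20 in both libraries follow in brackets.

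**Figure D1:**
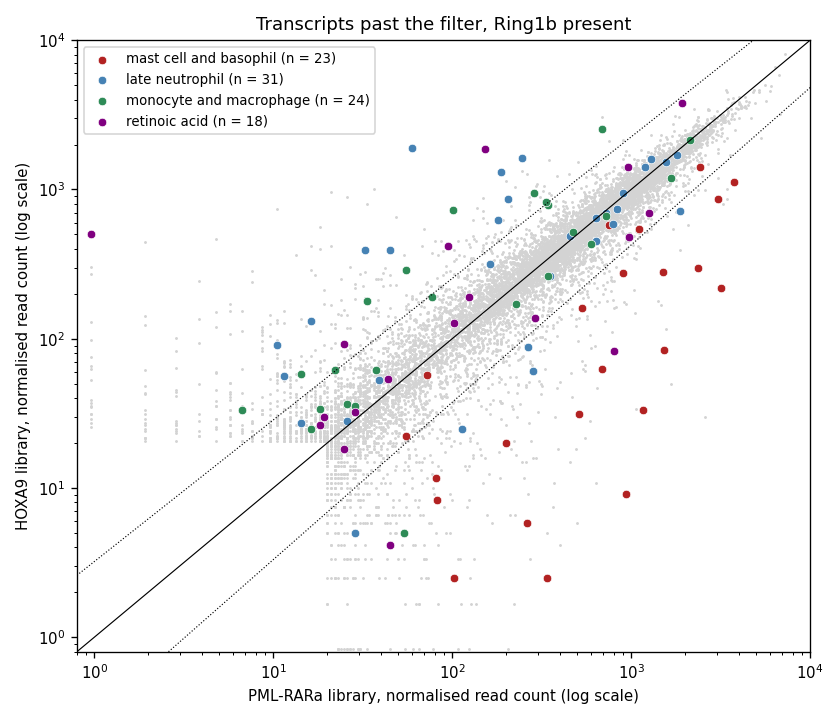
Normalised read counts of the 10886 transcripts past the filter, with the PML-RARa library on the x axis and the HOXA9 library on the y axis (both log scale). Grey points are all transcripts, coloured points are genes of 4 lists, the solid line marks equal values and the dotted lines a 2-fold difference of value + 1. Mast cell and basophil genes lie to the lower right of the equal line, and Cyp26a1 is the highest point at the left edge with 0.957 in PML-RARa cells and 504 in HOXA9 cells.

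The largest positive difference was that of Cadm3, an adhesion molecule of the immunoglobulin family, with 204 in PML-RARa cells, against 0.83 in HOXA9 cells. Igfbp5, a secreted binding protein of insulin-like growth factors, had 2596 in PML-RARa cells, against 29.9 in HOXA9 cells, a ratio of 86.9 (95% exact counting interval 62.6 to 124). Maob, the monoamine oxidase B, had 498 in PML-RARa cells, against 5.81 in HOXA9 cells. These genes were abundant in PML-RARa cells and at or near the lowest entry, or at 29.9 for Igfbp5, in HOXA9 cells.

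The growth factor gene Bmp7 had 272 in PML-RARa cells, against 3.32 in HOXA9 cells, and Gnai1, a G protein subunit, had 123 in PML-RARa cells, against 0.83 in HOXA9 cells. Rprm, a cell cycle arrest gene known as a p53 target, had 639 in PML-RARa cells, against 10.8 in HOXA9 cells. The others among the 12 largest were the mast cell proteases Mcpt2 (6.60) and Mcpt4 (6.54), the pseudogene Mcpt-ps1 (6.38), Pxdc1 (6.28), the proton channel gene Otop1 (5.89) and Nrip3 (5.82), all as differences. Among transcripts with 500 or more in the higher library, the phosphatase gene Ptprg (5.03), the actin regulator Avil (4.93), Fam198b (4.62) and Havcr2, the immune receptor TIM-3 (4.34), were also among the 10 largest differences. The 12 genes with the largest positive differences stood at 209 to 2333 in NT cells and at 1.06 to 20.1 in MLL-AF9 cells. They were thus read at high levels in NT cells, as in PML-RARa cells, and at low levels in MLL-AF9 cells, as in HOXA9 cells.

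The largest negative difference was that of Cyp26a1, the enzyme that breaks down retinoic acid, with 0.957 in PML-RARa cells, against 504 in HOXA9 cells. It is described with the other retinoic acid genes below. Tmem47, a membrane protein of cell junctions, had 0.957 in PML-RARa cells, against 301 in HOXA9 cells, and Ccm2l, a gene known from heart and vessel development, had 1.91 in PML-RARa cells, against 447 in HOXA9 cells. Scarf1, a scavenger receptor, had 4.78 in PML-RARa cells, against 463 in HOXA9 cells. Sash1, a signalling scaffold, had 10.5 in PML-RARa cells, against 741 in HOXA9 cells, and Hpgd, which inactivates prostaglandins, had 21.1 in PML-RARa cells, against 955 in HOXA9 cells. In PML-RARa cells these genes stood between the lowest entry and 21.1.

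Further among the 12 largest negative differences were Azgp1 (-7.13), the transcription factor Fezf1 (-6.06), the heparan sulphate proteoglycan Sdc2 (-5.67), Tmc7 (-5.67), the adenylate kinase Ak5 (-5.62) and Megf10 (-5.42). Among well-counted transcripts, Tgfb2, a TGF-beta ligand, had 25.8 in PML-RARa cells, against 897 in HOXA9 cells, and Vcam1, the adhesion ligand of integrin alpha 4, had 33.5 in PML-RARa cells, against 797 in HOXA9 cells. Pyhin1 (-4.87), Bpifc (-4.75), Tmem86a (-3.72), Cybb and Aldh1a3 complete the 10 largest there. Of the 12 genes with the largest negative differences, 11 stood higher in MLL-AF9 than in NT cells, the exception being Scarf1 with 123 in MLL-AF9 and 367 in NT cells. Hpgd stood at 24.8 in NT and 2407 in MLL-AF9 cells, and Ccm2l at 82.7 in NT and 893 in MLL-AF9 cells. Others were low in both: Tmem47 stood at 2.48 in NT and 5.29 in MLL-AF9 cells. Azgp1 stood at 1.65 in NT and 5.29 in MLL-AF9 cells, Ak5 at 1.65 and 7.41, and Fezf1 at 0.827 and 2.12. In HOXA9 cells Azgp1, Ak5 and Fezf1 had 273, 142 and 130.

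Mast cell and basophil genes were the list with the highest median difference of the 30, 2.98 against a median of 0.03 over all transcripts past the filter. Mast cells and basophils are granule-bearing effector cells of allergy, which arise from progenitors that use the transcription factor GATA2 and carry the high-affinity IgE receptor. Of 29 genes in the tables, 23 passed the filter, 20 were higher and 0 lower in PML-RARa cells, against 7.10% higher over all symbols. Of the 23, 7 passed through the PML-RARa library alone and so had to have the larger value there, and 13 of the 16 that reached 20 in both libraries were higher. The levels of the list summed to 25636 in PML-RARa cells, against 6116 in HOXA9 cells, with 27929 in NT and 3268 in MLL-AF9 cells.

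The receptor chains that bind IgE were far apart. Fcer1a, the IgE-binding chain, had 1162 in PML-RARa cells, against 33.2 in HOXA9 cells, a ratio of 35.0 (25.5 to 49.2). Ms4a2, the beta chain, had 82.3 in PML-RARa cells, against 8.30 in HOXA9 cells. Fcer1g, the gamma chain that other receptors of myeloid cells share, had 756 in PML-RARa cells, against 575 in HOXA9 cells and lay within 2-fold. Il1rl1, the receptor of interleukin 33, had 3178 in PML-RARa cells, against 219 in HOXA9 cells, the largest difference among the receptors of the list apart from Fcer1a. Kit, the receptor that mast cells need, is a member with few reads on either side, as given above.

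Granule enzymes were higher too. The chymase Cma1 had 1520.5 in PML-RARa cells, against 83.9 in HOXA9 cells, and the chymase Mcpt4 had 939 in PML-RARa cells, against 9.13 in HOXA9 cells. The tryptases Tpsb2 and Tpsg1 had differences of 2.43 and 3.98. Mcpt1 (4.89) and Mcpt2 (6.60) are near copies of each other, as are Tpsb2 and Tpsab1, and how reads were split between such copies is not known. Mcpt8, a protease of basophils, had 1111 in PML-RARa cells, against 543 in HOXA9 cells, and Prss34, also of basophils and mast cells, had a difference of 1.70. Cpa3, the mast cell carboxypeptidase, had 2413 in PML-RARa cells, against 1405 in HOXA9 cells and did not reach 2-fold. Its reads per base, 1.74 in PML-RARa cells and 1.17 in HOXA9 cells, stand near the highest of any transcript in either library, 1.83, and whether differences of such transcripts are compressed was not tested.

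Genes for mediators and their storage were higher as well. Hdc, which makes histamine, had 3069.7 in PML-RARa cells, against 865 in HOXA9 cells. Slc18a2, which loads amines into granules, had 2357 in PML-RARa cells, against 299 in HOXA9 cells, and Hpgds, which makes prostaglandin D2, had 199 in PML-RARa cells, against 19.9 in HOXA9 cells. The cytokines Il4, Il6 and Il13 had differences of 2.71, 3.45 and 5.27. Gata2 itself had 3765 in PML-RARa cells, against 1129 in HOXA9 cells. The members below the filter were Cma2, Tpsab1, Kit, Mitf, Mrgprb1 and Mrgprb2, and for Mitf the values were 2.87 in PML-RARa cells, against 7.47 in HOXA9 cells.

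In bulk RNA, more cells of a type and more RNA per cell cannot be told apart, so the list does not say whether the PML-RARa culture held more mast cell or basophil precursors. In all 23 members past the filter, PML-RARa cells stood above HOXA9 cells (smallest difference 0.34), as the filter required for the 7 named above. In 22 of the 23, PML-RARa and NT cells both stood above HOXA9 and MLL-AF9 cells. The PML-RARa and NT levels were within 2-fold of each other in 17. Mcpt2 was not among the 17, with 337 in PML-RARa and 1031 in NT cells. Mcpt4 stood at 1078 in NT and 9.53 in MLL-AF9 cells, Fcer1a at 1388 in NT and 21.2 in MLL-AF9 cells. In the OHT pair 23 of 26 members past the filter were higher in PML-RARa OHT cells, with a median difference of 3.20, against 8.13% higher over all symbols there, and 20 were higher in both pairs. Of the 18 at 20 or more in both OHT libraries, 16 were higher.

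**Figure D2:**
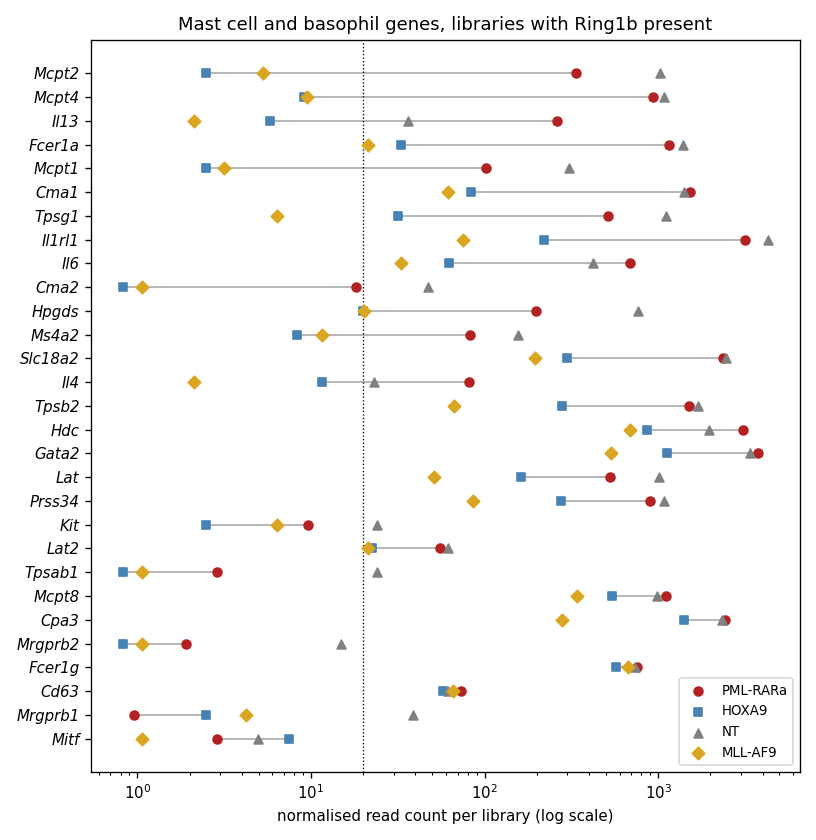
Normalised read counts (log scale) of the 29 mast cell and basophil genes in the 4 libraries with Ring1b present, 1 point per library, ordered by the difference between PML-RARa and HOXA9 cells. The grey line joins PML-RARa and HOXA9, and the dotted line marks 20. Circles for PML-RARa cells stand to the right of the squares for HOXA9 cells in all but Mrgprb1 and Mitf, and the 20 genes called higher lie at least 2-fold to the right.

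The promoters of 3 of these genes are shown as examples of a receptor gene and 2 granule enzyme genes that hold a GATA word, the short DNA sequence that GATA factors bind. They come from RefSeq (GRCm38.p6), span 250 bases before to 50 bases after the gene start, run 5' to 3' on the gene's strand, and carry in capitals, on either strand, the letters GATA with A or T before them and A or G after them. Mcpt4 lies at chr14:56062261-56062560 on the minus strand, Fcer1a at chr1:173227180-173227479 on the minus strand and Cma1 at chr14:55944626-55944925 on the minus strand.
Mcpt4 promoter: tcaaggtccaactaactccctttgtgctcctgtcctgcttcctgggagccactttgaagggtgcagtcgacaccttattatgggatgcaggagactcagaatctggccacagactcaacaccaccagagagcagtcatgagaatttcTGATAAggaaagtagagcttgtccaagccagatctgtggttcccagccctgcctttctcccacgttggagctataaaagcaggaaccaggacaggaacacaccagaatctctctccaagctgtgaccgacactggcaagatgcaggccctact
Fcer1a promoter: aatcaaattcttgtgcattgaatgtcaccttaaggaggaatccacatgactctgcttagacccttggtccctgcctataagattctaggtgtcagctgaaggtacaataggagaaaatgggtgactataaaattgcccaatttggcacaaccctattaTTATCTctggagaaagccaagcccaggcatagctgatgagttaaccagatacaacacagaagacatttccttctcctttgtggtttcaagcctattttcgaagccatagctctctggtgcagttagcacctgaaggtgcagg
Cma1 promoter: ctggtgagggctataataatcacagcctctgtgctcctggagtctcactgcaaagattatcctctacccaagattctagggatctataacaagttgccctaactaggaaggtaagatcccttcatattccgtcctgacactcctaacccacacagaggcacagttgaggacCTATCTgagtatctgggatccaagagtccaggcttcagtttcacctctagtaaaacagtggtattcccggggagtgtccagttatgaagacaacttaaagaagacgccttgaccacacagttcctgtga
Such a word was found in 17 of the 24 genes of the mast cell list that have a promoter in the table (70.8%), against 33.0% of all 27025 genes there and 21.0% of the genes past the filter. Among all genes higher in PML-RARa cells 25.6% held one, and 29.1% of those lower. A word is a match of letters, not a bound site.

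Other lineages that use GATA factors were higher in part. The shares over all symbols were 7.10% higher and 5.84% lower. Gata1, the factor of erythroid cells, megakaryocytes, eosinophils and mast cells, had 539 in PML-RARa cells, against 62.3 in HOXA9 cells, a ratio of 8.65 (6.79 to 11.2). Of the megakaryocyte and platelet genes, 6 were higher and 2 lower in PML-RARa cells among 13 that passed the filter (4 and 2 of the 11 at 20 or more in both libraries), with a median of 0.88. That median was 0.035 with no filter on low values, 0.43 with a limit of 50 and 0.37 in RPM (shares of the library totals), and it was 0.82 in the OHT pair. Itga2b, or CD41, had 3435 in PML-RARa cells, against 857 in HOXA9 cells, and Gp1ba, a chain of the von Willebrand receptor, had 329 in PML-RARa cells, against 63.1 in HOXA9 cells. Rab27b, a granule transport gene that mast cells use as well, had 83.2 in PML-RARa cells, against 1.66 in HOXA9 cells. Ppbp, a platelet chemokine, went the other way with 26.8 in PML-RARa cells, against 118 in HOXA9 cells, and Vwf had 110.0 in PML-RARa cells, against 112 in HOXA9 cells. Gp6 and Clec1b stood at the lowest entry in both libraries.

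Of the erythroid genes, 6 were higher and 0 lower in PML-RARa cells among 11 that passed the filter (5 and 0 of the 10 at 20 or more in both libraries), with a median of 1.18. That median was 0.67 with no filter on low values and 0.28 in RPM. It was -0.01 in the OHT pair, where 4 were higher and 1 lower of 10. Over all transcripts of the OHT pair, 8.20% were higher and 13.1% lower. Klf1, the erythroid master factor, had 109 in PML-RARa cells, against 27.4 in HOXA9 cells, Rhag, a blood group antigen carrier, had 229.7 in PML-RARa cells, against 29.9 in HOXA9 cells, and Epor, the erythropoietin receptor, had 256 in PML-RARa cells, against 90.5 in HOXA9 cells. Other genes of the lineage lay within 2-fold, among them the transferrin receptor Tfrc with 2487 in PML-RARa and 2444 in HOXA9. The defining genes Alas2 and Slc4a1 were below the filter. Of the eosinophil genes, 5 were higher and 0 lower in PML-RARa cells among 8 that passed the filter (3 and 0 of the 6 at 20 or more in both libraries): Alox15, the 15-lipoxygenase, had 453 in PML-RARa cells, against 14.9 in HOXA9 cells, and Prg3, a granule protein, had 305 in PML-RARa cells, against 52.3 in HOXA9 cells, while the eosinophil peroxidase Epx had 373 in PML-RARa cells, against 482 in HOXA9 cells. Of the B, T and NK cell genes, 5 were higher and 1 lower in PML-RARa cells among 9 that passed the filter (2 and 1 of the 6 at 20 or more in both libraries). Gzmb, which mast cells also make, had 1873 in PML-RARa cells, against 392 in HOXA9 cells, Cd7 had 83.2 in PML-RARa cells, against 4.15 in HOXA9 cells, and Cd79b, of the B cell receptor, had 58.4 in PML-RARa cells, against 137 in HOXA9 cells. The defining genes Cd3e and Ncr1 were below the filter, and Ebf1, Rag2 and Lck stood at the lowest entry in both libraries.

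Retinoic acid genes were called in both directions. Retinoic acid binds RAR and RXR receptors on direct repeats of a short half-site, and Cyp26a1 and Rarb are textbook targets whose transcription rises with it. Of 29 genes found, 18 passed the filter, 4 were higher and 4 lower in PML-RARa cells (3 and 3 of the 13 at 20 or more in both libraries), and the median difference was -0.42. The shares over all symbols were 7.10% higher and 5.84% lower.

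The promoters of Cyp26a1 and Rarb are shown because they were the genes of the list with a promoter holding a direct repeat spaced by 5 bases. They come from RefSeq (GRCm38.p6), cover 250 bases before to 50 bases after the gene start, and run 5' to 3' on the gene's strand. Capitals mark a direct repeat of 2 half-sites, on either strand, with the 5 bases between them. A half-site is A or G, then G, then G or T, then TCA. Cyp26a1 lies at chr19:37697558-37697857 on the plus strand and Rarb at chr14:16575427-16575726 on the minus strand.
Cyp26a1 promoter: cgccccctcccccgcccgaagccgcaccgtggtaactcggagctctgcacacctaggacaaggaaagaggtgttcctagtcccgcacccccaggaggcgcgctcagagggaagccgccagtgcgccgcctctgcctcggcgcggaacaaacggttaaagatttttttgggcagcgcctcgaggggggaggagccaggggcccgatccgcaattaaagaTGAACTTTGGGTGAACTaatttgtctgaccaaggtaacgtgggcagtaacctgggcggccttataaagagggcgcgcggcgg
Rarb promoter: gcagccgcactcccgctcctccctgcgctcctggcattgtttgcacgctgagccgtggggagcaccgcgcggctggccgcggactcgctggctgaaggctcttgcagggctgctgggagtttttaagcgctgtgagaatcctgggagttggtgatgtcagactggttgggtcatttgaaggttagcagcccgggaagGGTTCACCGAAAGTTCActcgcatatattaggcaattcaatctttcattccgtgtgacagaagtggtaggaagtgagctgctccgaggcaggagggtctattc
Such a repeat was found in 32 of 32851 promoters (0.0974%). With 1 or 2 bases between the half-sites, none of the 22 genes of the list with a promoter held a repeat, and the other promoters of the list held none with 5.

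Cyp26a1 had 1 read in PML-RARa cells and 607 reads in HOXA9 cells, a ratio of 0.0019 (4.8e-05 to 0.0106). It stood at 30.6 in NT and 368 in MLL-AF9 cells, so PML-RARa cells held the lowest of the 4 levels. Cyp26a1 had 1.19 in PML-RARa OHT cells, against 128 in HOXA9 OHT cells. Rarb, with the same kind of repeat, stood below the filter with 4.78 in PML-RARa cells, against 1.66 in HOXA9 cells.

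Enzymes that act on retinol or retinaldehyde differed among themselves. Aldh1a3, a retinaldehyde dehydrogenase, had 153 in PML-RARa cells, against 1880.4 in HOXA9 cells, a difference of -3.61. In the OHT pair it had 494 in PML-RARa OHT cells, against 319 in HOXA9 OHT cells (difference 0.63), so its difference with Ring1b present was not seen there. Rdh12, named as a retinol dehydrogenase, had 24.9 in PML-RARa cells, against 92.2 in HOXA9 cells, whereas Dhrs9 had 45.0 in PML-RARa cells, against 4.15 in HOXA9 cells. Cd38, an ectoenzyme that retinoic acid induces, had 94.7 in PML-RARa cells, against 416 in HOXA9 cells. Tgm2, the transglutaminase also induced by it, had 1918 in PML-RARa cells, against 3769 in HOXA9 cells and lay just within 2-fold.

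Higher in PML-RARa cells were Asb2, a retinoic acid induced ubiquitin ligase subunit, with 805 in PML-RARa cells, against 82.2 in HOXA9 cells, Cebpe, a factor of late granulocytes, with 973 in PML-RARa cells, against 477 in HOXA9 cells, and Nrip1, a corepressor of nuclear receptors, with 289.9 in PML-RARa cells, against 139 in HOXA9 cells. The receptors themselves were within 2-fold: Rara had a difference of -0.29, Rarg one of -0.17, and Rxra one of 0.86 with 1264 in PML-RARa cells, against 698 in HOXA9 cells. The corepressor Ncor1 was within 2-fold as well, with a difference of -0.63. The levels of the list summed to 6929.7 in PML-RARa cells, against 10023 in HOXA9 cells.

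**Figure D3:**
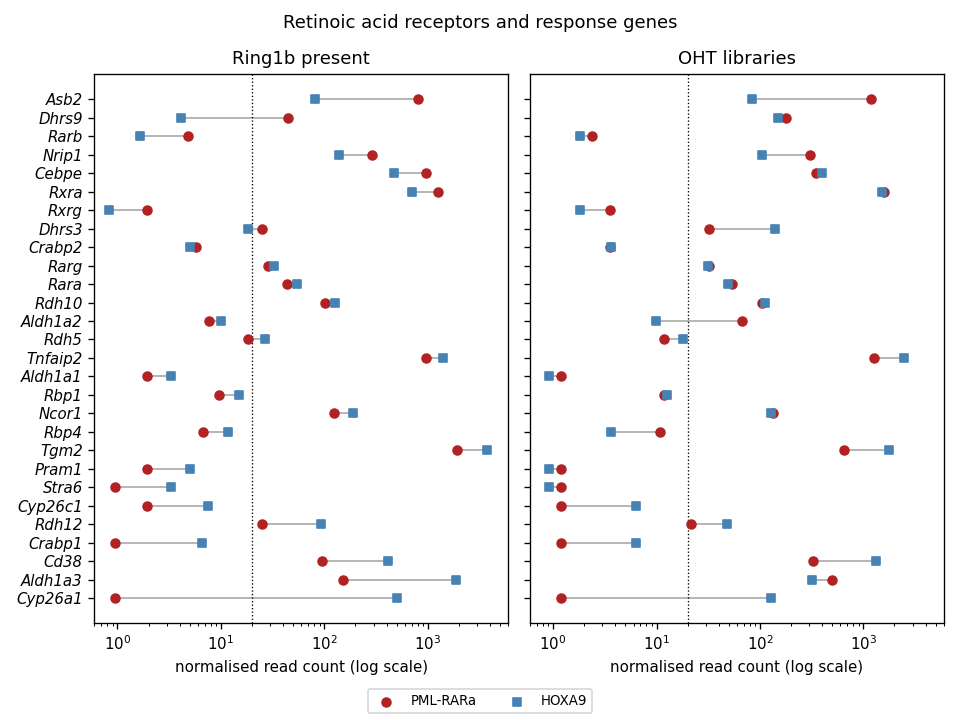
Normalised read counts (log scale) of 28 of the 29 retinoic acid receptors and response genes in PML-RARa cells (circles) and HOXA9 cells (squares), with Ring1b present on the left and in the OHT libraries on the right, ordered by the difference with Ring1b present. The dotted line marks 20. Cyp26a1 is at the lowest entry in both PML-RARa libraries, and the Aldh1a3 circle is left of the HOXA9 square in the left panel, with 153 in PML-RARa cells and 1880.4 in HOXA9 cells, but not in the right one.

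No Hox gene other than Hoxa9 was called lower in PML-RARa cells. Of 37 Hox genes found, 15 passed the filter, 6 were higher and 1, Hoxa9, was lower, with a median of 0.56. Among all symbols past the filter, 7.10% were higher and 5.84% lower. Of the 15, 5 passed through the PML-RARa library alone, and of the 9 that reached 20 in both libraries, 1 was higher and 1 lower. Hoxa10 had 56.5 in PML-RARa cells, against 18.3 in HOXA9 cells, Hoxd13 had 357 in PML-RARa cells, against 154 in HOXA9 cells, and Hoxd8 had 57.4 in PML-RARa cells, against 16.6 in HOXA9 cells. Hoxa7 and Hoxa5 lay within 2-fold with differences of 0.34 and 0.36. Hoxd13 stood at 2.48 in NT and 5.29 in MLL-AF9 cells, below both.

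In the OHT pair, 10 of 15 Hox genes past the filter were lower and 1 higher in PML-RARa OHT cells, with a median of -1.32. Of the 6 at 20 or more in both OHT libraries, 3 were lower and 0 higher. Over all transcripts the shares in the OHT pair were 13.1% lower and 8.20% higher. Whether Hox genes answer OHT differently in the 2 contexts was not tested, since each context has 1 library per treatment. Of the TALE cofactors that bind DNA beside HOX proteins, none of 4 past the filter was called, and Pbx3 had 146 in PML-RARa cells, against 123 in HOXA9 cells. Meis1 was below the filter.

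Of the genes tied to HOXA9 and MEIS1 in leukaemia, 2 were higher and 3 lower in PML-RARa cells among 18 that passed the filter (1 and 3 of the 16 at 20 or more in both libraries), and the median was 0.01. Among all symbols 7.10% were higher and 5.84% lower. Lower were Sox4 with 269 in PML-RARa cells, against 728 in HOXA9 cells, Six4 with 66.0 in PML-RARa cells, against 147 in HOXA9 cells and the receptor tyrosine kinase Flt3 with 51.7 in PML-RARa cells, against 109.6 in HOXA9 cells. Higher were Mecom, a stem cell factor, with 29.7 in PML-RARa cells, against 0.83 in HOXA9 cells, and Tspan13 with 616 in PML-RARa cells, against 236 in HOXA9 cells. Myb, Bcl2, Cdk6 and Erg lay within 2-fold, with differences of -0.22, -0.00, -0.45 and 0.08.

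Primary granule proteins are stored in promyelocytes, secondary and tertiary granule proteins in later stages. Of the primary granule genes, 0 were higher and 3 lower in PML-RARa cells among 20 that passed the filter, with a median of -0.00. Shares over all symbols were 7.10% higher and 5.84% lower. Mpo, Elane, Prtn3 and Ctsg lay within 2-fold, with differences of -0.04, -0.76, -0.51 and 0.06. Lower were Fcnb, a ficolin, with 21.1 in PML-RARa cells, against 420.1 in HOXA9 cells, and the lysozymes Lyz2 with 321 in PML-RARa cells, against 981 in HOXA9 cells and Lyz1 with a difference of -1.03, whose sequences are close to each other. In this list 15 genes exceed 0.5 reads per base, and without transcripts over that level the median was -0.39.

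Of the late neutrophil genes, 5 were higher and 10 lower in PML-RARa cells among 31 that passed the filter (4 and 7 of the 26 at 20 or more in both libraries). Among all symbols 7.10% were higher and 5.84% lower. Cybb, the catalytic subunit of the NADPH oxidase, had 59.3 in PML-RARa cells, against 1909.5 in HOXA9 cells, a ratio of 0.0311 (0.0237 to 0.04). Camp, the cathelicidin of secondary granules, had 45.0 in PML-RARa cells, against 395 in HOXA9 cells, and Ltf, or lactoferrin, had 206 in PML-RARa cells, against 863 in HOXA9 cells. Itgb2l (-3.56), the formyl peptide receptor Fpr2 (-2.99), Retnlg (-2.95), Chi3l3 (-2.78), Cd177 (-2.72), Ceacam10 (-2.20) and Lrg1 (-1.77) complete the lower ones. All 10 stood higher in NT cells than in either library, such as Ltf at 3289 and Cybb at 3257.

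Other late genes were higher or within 2-fold. The chemokine receptor Cxcr2 had 1876 in PML-RARa cells, against 722 in HOXA9 cells, and the stefins Stfa1, Stfa2 and Stfa3, near copies of each other, had differences of 1.57, 2.20 and 2.15. Mmp25 was also higher (2.31). Ngp, Lcn2, Mmp8 and S100a8 lay within 2-fold, with differences of -0.24, -0.03, 0.03 and -0.09. The list median was -0.12, and without transcripts over 0.5 reads per base it was -0.89. The levels of the list summed to 14994 in PML-RARa cells, against 19797 in HOXA9 cells.

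Monocyte and macrophage genes had the lowest median of the 30 lists, -0.79: 1 was higher and 11 lower in PML-RARa cells among 24 that passed the filter (0 and 9 of the 19 at 20 or more in both libraries), of 34 found. The median was -1.21 with a limit of 50 and -1.25 in RPM. Shares over all symbols were 7.10% higher and 5.84% lower. Mrc1, the mannose receptor, had 101 in PML-RARa cells, against 729.8 in HOXA9 cells, and Ccr2, the receptor that draws monocytes to tissue, had 689.9 in PML-RARa cells, against 2552 in HOXA9 cells, a ratio of 0.27 (0.249 to 0.293). Csf1r, the receptor of macrophage colony-stimulating factor, had 336 in PML-RARa cells, against 826 in HOXA9 cells. The monocyte factors Klf4 and Maf had differences of -2.37 and -2.39. Gpnmb (-1.74), Fcgr1 (-1.95), Mertk (-2.15), Msr1 (-1.44) and Cd14 (-1.21) were lower as well. Cx3cr1, a chemokine receptor, was higher with 53.6 in PML-RARa cells, against 4.98 in HOXA9 cells, and Ly6c2, Cd68 and Emr1 (F4/80) lay within 2-fold. Marco, Cd163, Ms4a7 and Cd36 stood at the lowest entry in both libraries.

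Of the dendritic cell and MHC class II genes, 2 were higher and 6 lower in PML-RARa cells among 16 that passed the filter (2 and 4 of the 13 at 20 or more in both libraries). Among all symbols 7.10% were higher and 5.84% lower. Irf8, a factor of monocytes and dendritic cells, had 269.8 in PML-RARa cells, against 892 in HOXA9 cells, H2-Ob had 69.9 in PML-RARa cells, against 543 in HOXA9 cells, H2-DMa had 136 in PML-RARa cells, against 452 in HOXA9 cells, and the costimulatory gene Cd80 had 18.2 in PML-RARa cells, against 63.9 in HOXA9 cells. Irf4 and Batf3 were higher, with differences of 1.26 and 1.18. In the OHT pair 18 of 29 monocyte and macrophage genes were lower in PML-RARa OHT cells, with a median of -1.39, against 13.1% lower over all transcripts there, and 15 of the 25 at 20 or more in both OHT libraries were lower.

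Of the interferon response genes, 2 were higher and 8 lower in PML-RARa cells among 18 that passed the filter (1 and 4 of the 13 at 20 or more in both libraries), with a median of -0.51. Over all symbols 7.10% were higher and 5.84% lower. Trim30a had 77.5 in PML-RARa cells, against 374 in HOXA9 cells, the guanylate-binding protein gene Gbp2 had 55.5 in PML-RARa cells, against 159 in HOXA9 cells, and Ifit2 had 12.4 in PML-RARa cells, against 64.8 in HOXA9 cells. Oas1a, Oas2, Xaf1, Rsad2 and Gbp3 were the others that were lower. Oasl2 was higher with 258 in PML-RARa cells, against 49.0 in HOXA9 cells, as was Usp18 with 24.9 in PML-RARa cells, against 11.6 in HOXA9 cells, and Isg15, with 70.8 in PML-RARa cells, against 41.5 in HOXA9 cells, was within 2-fold. Between the OHT libraries, 22 of 28 were lower in PML-RARa OHT cells, against 13.1% lower over all transcripts there. The list median was -1.83, against -0.15 per symbol over the OHT pair. Of the 24 at 20 or more in both OHT libraries, 19 were lower.

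Lineage transcription factors were called in both directions. Of 39 past the filter, 6 were higher and 7 lower (6 and 6 of the 37 at 20 or more in both libraries). The shares over all symbols, for these and for the stem regulators below, were 7.10% higher and 5.84% lower. Beside Gata1 and Gata2, the higher ones were Nr4a1 with 1366 in PML-RARa cells, against 592 in HOXA9 cells, Id3, Irf4 and Cebpe. Gfi1, a repressor that granulocytes need, was lower with 11.5 in PML-RARa cells, against 69.7 in HOXA9 cells, as were Cebpd with 257 in PML-RARa cells, against 546 in HOXA9 cells and Per3. Spi1 (PU.1), Cebpa, Cebpb and Runx3 lay within 2-fold, with differences of 0.05, -0.19, -0.36 and 0.08. Of the stem and progenitor regulators, 5 were higher and 3 lower in PML-RARa cells among 32 that passed the filter (4 and 2 of the 29 at 20 or more in both libraries). Lin28b, an RNA-binding protein of fetal blood progenitors, had 6.70 in PML-RARa cells, against 153 in HOXA9 cells, and Mycn, a MYC family factor, had 573 in PML-RARa cells, against 265 in HOXA9 cells. Igf2bp2 had 159 in PML-RARa cells, against 46.5 in HOXA9 cells, while Lmo2, Tal1 and Hlf lay within 2-fold.

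Of the cytokine receptors, 7 were higher and 6 lower in PML-RARa cells among 39 that passed the filter (5 and 6 of the 37 at 20 or more in both libraries). The shares over all symbols, for these and for the chemokines below, were 7.10% higher and 5.84% lower. Beside Il1rl1, the interleukin 18 receptor Il18r1 had 715 in PML-RARa cells, against 132 in HOXA9 cells, and Csf2rb2, the interleukin 3 receptor chain, had 5333 in PML-RARa cells, against 2225 in HOXA9 cells. Lower beside Ccr2 and Csf1r were the TNF receptor Tnfrsf1b with 750.2 in PML-RARa cells, against 2107 in HOXA9 cells and Il21r (-1.22). Of the chemokines and cytokines, 11 were higher and 6 lower in PML-RARa cells among 28 that passed the filter (5 and 1 of the 14 at 20 or more in both libraries). Ccl24 had 366 in PML-RARa cells, against 7.47 in HOXA9 cells, Ccl2 had 553 in PML-RARa cells, against 66.4 in HOXA9 cells, and Osm had 2253 in PML-RARa cells, against 923 in HOXA9 cells, whereas Tgfb3 had 4.78 in PML-RARa cells, against 120.4 in HOXA9 cells and Il1a had 12.4 in PML-RARa cells, against 72.2 in HOXA9 cells. In the OHT pair Ccl24 had 787 in PML-RARa OHT cells, against 518 in HOXA9 OHT cells and Ccl2 had 1106 in PML-RARa OHT cells, against 982 in HOXA9 OHT cells, both within 2-fold.

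Genes of clotting and of annexin A2, which are studied in promyelocytic leukaemia for the bleeding of patients, were mostly within 2-fold: 3 were higher and 0 lower in PML-RARa cells among 13 that passed the filter. The shares over all symbols, for these and for the signalling and adhesion genes below, were 7.10% higher and 5.84% lower. Hgf, the hepatocyte growth factor, had 2084 in PML-RARa cells, against 581 in HOXA9 cells, Podxl had 1588 in PML-RARa cells, against 665 in HOXA9 cells, and Cd9 had 1058 in PML-RARa cells, against 528 in HOXA9 cells. Tissue factor, F3, had 26.8 in PML-RARa cells, against 50.6 in HOXA9 cells, and Anxa2 had 1739 in PML-RARa cells, against 1539 in HOXA9 cells. Of the signalling and adhesion genes, 3 were higher and 1 lower in PML-RARa cells among 33 that passed the filter (2 and 1 of the 31 at 20 or more in both libraries): the collagen receptor Itga2 had 50.7 in PML-RARa cells, against 2.49 in HOXA9 cells, Socs1 had 77.5 in PML-RARa cells, against 24.9 in HOXA9 cells, the beta 3 integrin Itgb3 had 2009 in PML-RARa cells, against 971 in HOXA9 cells, and Spry1, an inhibitor of receptor signalling, had 174 in PML-RARa cells, against 505 in HOXA9 cells.

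Genes of other tissues were read in both libraries. For the lists of this paragraph, the shares over all symbols were 7.10% higher and 5.84% lower. Of the developmental transcription factors outside blood, 2 were higher and 3 lower in PML-RARa cells among 21 that passed the filter (2 and 0 of the 17 at 20 or more in both libraries), of 60 found. Six2 had 309 in PML-RARa cells, against 83.0 in HOXA9 cells, and Otx1 had 66.0 in PML-RARa cells, against 27.4 in HOXA9 cells, while Pitx1 had 18.2 in PML-RARa cells, against 71.4 in HOXA9 cells. Zic1, with 414 in PML-RARa cells, against 349 in HOXA9 cells, and Tbx15, with 322 in PML-RARa cells, against 178 in HOXA9 cells, were within 2-fold of each other and stood at 2.48 and 4.14 in NT cells. Of the stromal, endothelial and epithelial genes, 3 were higher and 3 lower in PML-RARa cells among 12 that passed the filter (3 and 1 of the 9 at 20 or more in both libraries). Cdh1, or E-cadherin, had 3570.1 in PML-RARa cells, against 1700.3 in HOXA9 cells, Epcam had 889 in PML-RARa cells, against 354 in HOXA9 cells, and Krt18 had 726 in PML-RARa cells, against 316 in HOXA9 cells, while Col1a1, with 10.5 in PML-RARa cells, against 22.4 in HOXA9 cells, and Acta2, with 30.6 in PML-RARa cells, against 74.7 in HOXA9 cells, were lower. Cdh5, which defines endothelium, stood at the lowest entry in both.

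Some lists had few or no called genes, against 7.10% higher and 5.84% lower over all symbols. None of 17 PRC1 subunits and none of 10 PRC2 subunits past the filter was 2-fold apart, with medians of -0.03 and -0.22, and Bmi1 had 873 in PML-RARa cells, against 672 in HOXA9 cells. None of 32 proliferation genes was either, with a median of 0.00: Mki67 had 3739.5 in PML-RARa cells, against 3849.7 in HOXA9 cells, and Top2a had 3621 in PML-RARa cells, against 3462 in HOXA9 cells. Of 22 CDK inhibitors and p53 targets, Btg2 was higher with 942 in PML-RARa cells, against 450.0 in HOXA9 cells, and Cdkn1a and Mdm2 lay within 2-fold. Of 22 Myc and ribosome biogenesis genes, Mycn alone was called. Of 23 sterol synthesis genes, Mvd, which reached 20 in HOXA9 cells alone, was lower with 9.57 in PML-RARa cells, against 21.6 in HOXA9 cells, and none of 18 histone variants and chromatin modifiers was called. With 1 library a side, a value within 2-fold does not show that the cells were alike.

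**Figure D4:**
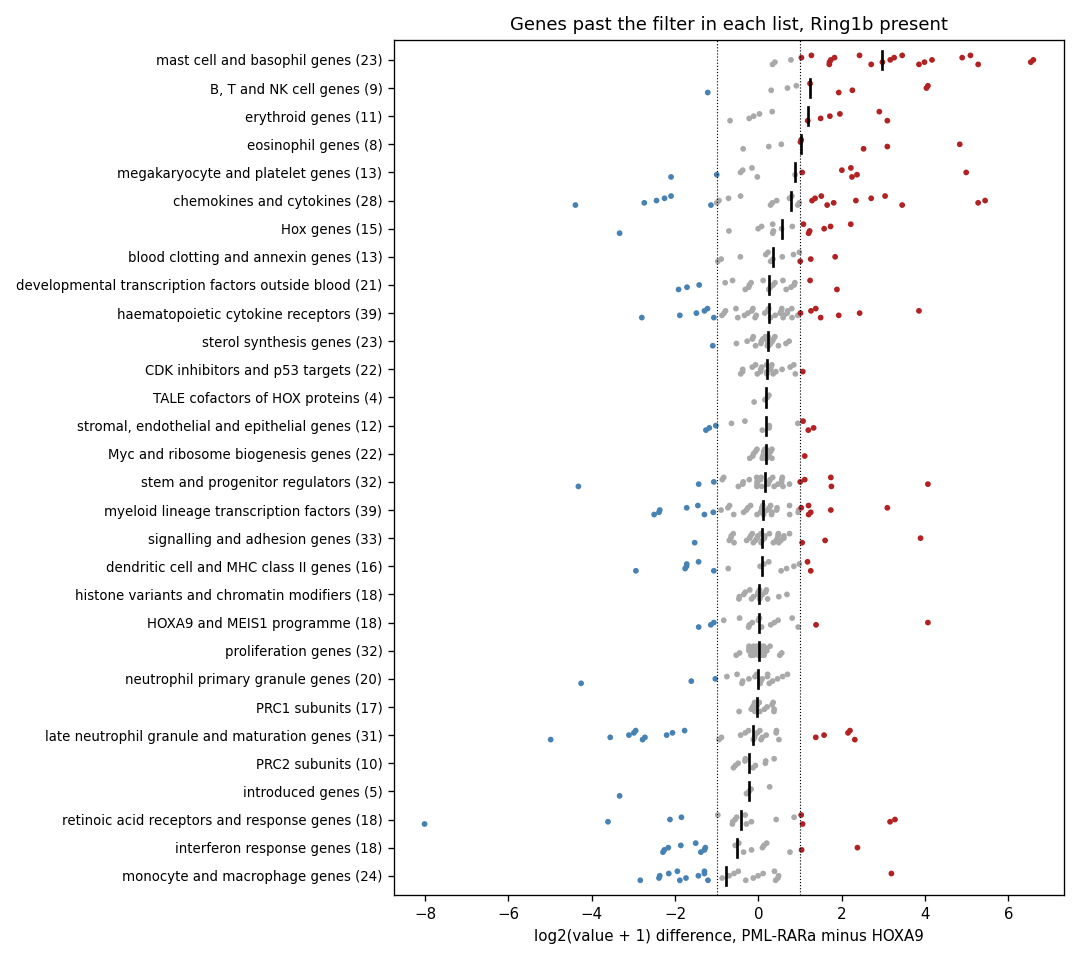
Differences of the genes past the filter in each of the 30 lists (number past the filter in brackets), PML-RARa minus HOXA9 with Ring1b present. Each point is 1 gene, red at least 2-fold higher in PML-RARa cells and blue at least 2-fold lower, the dotted lines mark 2-fold and the black bar is the list median. The medians run from -0.79 for monocyte and macrophage genes to 2.98 for mast cell and basophil genes.

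The OHT pair repeated the direction for the larger part of the called transcripts. Of the 771 higher with Ring1b present, 664 passed the filter in the OHT pair, 404 of these (60.8%) were at least 2-fold higher in PML-RARa OHT cells and 53 (7.98%) at least 2-fold lower. Of the 637 lower, 539 passed, 361 (67.0%) were at least 2-fold lower and 13 (2.41%) at least 2-fold higher. Over all transcripts past the filter of the OHT pair, 8.20% were higher and 13.1% lower. The 404 make up 44.9% of the transcripts called higher in the OHT pair, and the 361 make up 25.0% of those called lower. The median difference of the OHT pair was -0.15 per symbol, against 0.03 with Ring1b present. Across the 10347 transcripts past both filters the differences had a Pearson correlation of 0.71 and a Spearman correlation of 0.49, a description across transcripts that share libraries and depth.

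The differences of Cadm3 and Tmem47 had the same sign in the OHT pair: Cadm3 had 1129 in PML-RARa OHT cells, against 5.43 in HOXA9 OHT cells, and Tmem47 had 1.19 in PML-RARa OHT cells, against 328 in HOXA9 OHT cells. Vcam1 had 5.95 in PML-RARa OHT cells, against 963 in HOXA9 OHT cells, a difference of -7.12. The proliferation genes, of which none was called with Ring1b present, had 10 lower and 1 higher of 32 in the OHT pair, with a median of -0.84. Ak5 had 3.57 in PML-RARa OHT cells, against 6.33 in HOXA9 OHT cells, so its large difference with Ring1b present was not seen there.

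**Figure D5:**
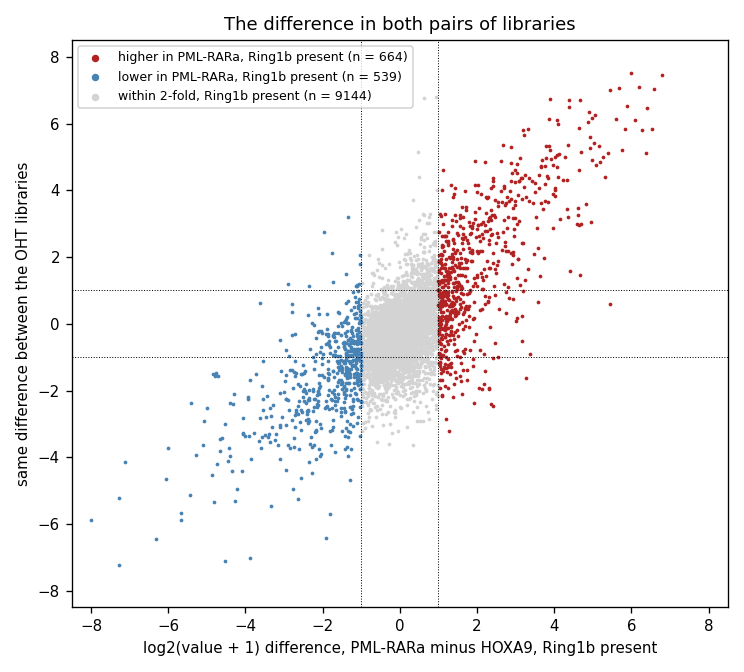
Difference with Ring1b present (x axis) against the difference between the OHT libraries (y axis), both PML-RARa minus HOXA9 in log2(value + 1), for the 10347 transcripts past both filters. Red points were at least 2-fold higher and blue points at least 2-fold lower with Ring1b present, and dotted lines mark 2-fold. Of the red points 404 lie above the upper dotted line, and of the blue points 361 lie below the lower one.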

How the data were processed

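RNA of 8 libraries was sequenced, 1 per context and treatment. Per the submitters' processing notes, TopHat and DESeq were used with the build mm9; the read counter is not given in the sources used here. Per the file headers, the deposited signal is the authors' normalised read count (base mean) per RefSeq transcript. Dividing each library by its lowest value gave whole reads for 100% of the values (tolerance 0.02), the lowest entry being 1, which may stand for 0 or 1 read. These steps equal median-of-ratios size factors over the 8 libraries, so values were set side by side across contexts.

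Differences are log2(value + 1), for transcripts with 20 or more in the higher library, called at 2-fold. Intervals of read ratios are exact (95%, scipy 1.17.1) and cover counting error alone. The count test on recovered reads of all 8 libraries, edgeR 4.0.16 (R 4.3.3), called 114 transcripts higher and 41 lower. Its code was also run on simulated data without an OHT effect, which does not show how the test behaves on these libraries. The kit does not mark strand, so overlapping genes share reads. A spreadsheet had changed 36 symbols to date numbers, of which 35 were recovered from the RefSeq identifier.

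The members and the 30 gene lists were chosen with earlier results of these data known. Named are the 12 largest differences each way, the 10 largest each way with 500 or more in the higher library, and called and defining members of the lists. The printed promoters were picked by symbol. For the shares with a word or repeat, genes of a set were matched to promoters through their RefSeq identifier. A few list members are not reported here by name, and the list counts include them. Alternatives were other scalings, pseudocounts, limits and transcript choices.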

Additional observations from a re-analysis of the deposited data

Results flagged for a closer look

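Among 819 transcripts that were named or belong to a list, 11 were at least 2-fold apart in opposite directions in the 2 pairs of libraries, with a value of 20 or more in the higher library of each pair. The 4 largest such transcripts each way were named because they were opposite, so 11 of 819 is not a rate. Over all called transcripts that also passed the filter in the OHT pair, 53 of 664 higher and 13 of 539 lower ones were opposite there. The difference between the pairs was not tested, because each context has 1 library per treatment. Differences (PML-RARa minus HOXA9) are given with Ring1b present first and for the OHT pair after it. Higher in PML-RARa cells with Ring1b present and lower in PML-RARa OHT cells were Foxd4 (2.41 and -2.46), Gcgr (1.27 and -3.21), Hoxb7 (1.08 and -1.01), Hoxd13 (1.20 and -1.32), Igf2bp2 (1.75 and -1.69), Oasl2 (2.38 and -2.40) and Sox21 (3.28 and -1.62). Lower in PML-RARa cells with Ring1b present and higher in PML-RARa OHT cells were Ccdc80 (-2.91 and 1.20), Col12a1 (-1.33 and 3.21), Fbn1 (-1.97 and 2.76) and Hhip (-1.76 and 2.12). Hoxb7 and Hoxd13 are Hox genes, and Oasl2 is an interferon response gene. Oasl2 had 278 in PML-RARa OHT cells, against 1469.6 in HOXA9 OHT cells. Fbn1, Ccdc80 and Col12a1 encode matrix proteins, and Fbn1 had 14.4 in PML-RARa cells, against 58.9 in HOXA9 cells with Ring1b present and 123 in PML-RARa OHT cells, against 17.2 in HOXA9 OHT cells.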

How the results depend on the processing

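With no filter on low values, 1523 transcripts were higher and 1263 lower in PML-RARa cells, and 47.1% and 48.0% of them were called the same way in the OHT pair. With values as shares of the library totals, in RPM, the counts were 335 and 306 and the shares 71.9% and 71.5%. RPM values are smaller numbers than the deposited values, so the limit of 20 and the pseudocount of 1 cut deeper and 8036 transcripts passed. Library totals brought to the scale of the deposited values, tried after that result had been seen, gave 710 and 710, with shares of 64.2% and 65.1%. Centring on the median of each pair moved the shares to 65.1% and 61.1%. edgeR's quasi-likelihood test on the recovered reads of all 8 libraries, with context and treatment as terms, an alternative chosen after seeing the data, called 114 higher and 41 lower at an adjusted p under 0.05 among 10599 transcripts, with 1523 at an unadjusted p under 0.05. It takes the OHT libraries as the second sample of each context, so it tests what the pairs share.

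The other settings tried (pseudocounts of 10 and 0.1, a limit of 50, TMM scaling, summed transcripts, no transcripts over 0.5 reads per base, 1 read taken off each entry) left both counts within 1.5 times. No called difference changed sign; 4 within 2-fold did, of transcripts of Cdkn2a and Rara once the transcripts of a symbol were summed. Each of the 30 list medians was recomputed under 12 settings, and of these 360 values 338 differed from the reported median by less than the median counting half-interval of the list's genes and 22 by more: mast cell and basophil genes had 2.39 with a pseudocount of 10, late neutrophil genes -0.89 without transcripts over 0.5 reads per base, and megakaryocyte genes 0.035 with no filter. The medians of 6 lists, each within 0.18 of 0 as reported, changed sign under some setting; without transcripts over 0.5 reads per base, the dendritic cell list had -0.72, the stromal list -0.32, histone variants -0.12 and myeloid transcription factors -0.09. Of 1656 values of 207 named or called differences under 8 settings, 1655 stayed within the counting half-interval and that of Maob moved, with a pseudocount of 10. No paired analysis was possible because the labels give no replicate numbers and each group has 1 library, and for the same reason no library could be left out.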

Other observations

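Sex-linked transcripts other than those above were looked up after their values were seen. Uty had 236 in PML-RARa cells, against 146 in HOXA9 cells, Kdm5d had 406 in PML-RARa cells, against 296 in HOXA9 cells, and Eif2s3y had 95.7 in PML-RARa cells, against 106 in HOXA9 cells. Reads of Xist and of Y-linked genes were thus present together in both libraries.

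The second Cdkn2a transcript in the tables, NM_001040654, had 34.4 in PML-RARa cells, against 25.7 in HOXA9 cells. Of the other Rara transcripts, NM_001177302 had 11.5 in PML-RARa cells, against 8.30 in HOXA9 cells, and NM_009024 had 5.74 in PML-RARa cells, against 3.32 in HOXA9 cells.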
